A study of Mus musculus with 6 samples.

Results

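The genes described here are 10 that run the calcium cycle of the heart muscle cell, chosen by name: Ryr2, Atp2a2, Pln, Sln, Casq1, Casq2, Trdn, Hrc, Jph2 and S100a1. All 10 were found by symbol among the 46983 genes of the deposited gene table. RNA-seq measured them in the aortic valves of wild type C57BL/6J mice of 2 ages, pups at postnatal day 2 (PND2) and adults of 4 months. Each age has 3 libraries, and a library pools 5 to 6 animals and so averages over them. The valves had been isolated with as little attached myocardium as possible. Both ages were untreated, and age is the only factor by which the labels separate the groups. After carbon dioxide, pups were killed by decapitation and adults by cervical dislocation, so this step also differs with age. The comparison addresses what differs between the valve that is still remodelling after birth and the mature valve.

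In a heart muscle cell, calcium entering from outside opens the ryanodine receptor (Ryr2) in the membrane of the sarcoplasmic reticulum, the internal calcium store, and the released calcium triggers contraction. The pump SERCA2 (Atp2a2) returns calcium to the store, phospholamban (Pln) and sarcolipin (Sln) restrain the pump, and calsequestrin (Casq1, Casq2) and the histidine-rich calcium-binding protein (Hrc) hold calcium inside the store. Triadin (Trdn) ties calsequestrin to the ryanodine receptor, junctophilin 2 (Jph2) holds the store against the surface membrane, and S100a1 is a calcium sensor that acts on both the pump and the receptor. Valve leaflets are built mainly of interstitial and endothelial cells, and heart muscle lies at their base. Some of these genes are not restricted to heart muscle: a second form of SERCA2 is found in most cells, and smooth muscle makes Pln.

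Levels are given in RPKM, reads per kilobase of exon scaled to the size of the library. Differences are 4 months minus PND2 on the log2(RPKM + 0.1) scale, tested with limma across 25903 genes, and a gene was called where the Benjamini-Hochberg adjusted p was under 0.05. Of the 10 genes, 4 were called higher at 4 months (Atp2a2, Hrc, Jph2, S100a1) against 14.7% of all genes tested, 3 were called lower (Casq1, Casq2, Trdn) against 21.1% of all genes tested, and 3 were not called (Ryr2, Pln, Sln). The same 4 and 3 genes did not overlap between the ages, against 20% of all genes tested with 4 months higher and 29.9% with 4 months lower. With a fold over 2 also required, taken from limma's log2 difference, the 3 lower calls held and 0 of the 4 higher ones. The shares of all genes tested were 8.47% and 8.72%. Hrc fell just short on that scale, at 0.99, although its ratio of mean RPKM was 2.05. The median difference was 0.06 over the 10 genes and -0.14 over all genes tested. The calls for Casq1, Casq2, Hrc, Jph2 and S100a1 held with each library left out in turn. Those for Atp2a2 and Trdn did not. A test of each gene by itself with unequal variances called 0 of the 10 at the same threshold (adjusted p from 0.075 to 0.58), with 4 at an unadjusted p under 0.05, and at an adjusted p under 0.1 it called Jph2 and Casq2. In whole tissue, fewer cells of a type and less RNA per cell cannot be told apart.

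**Figure D1:**
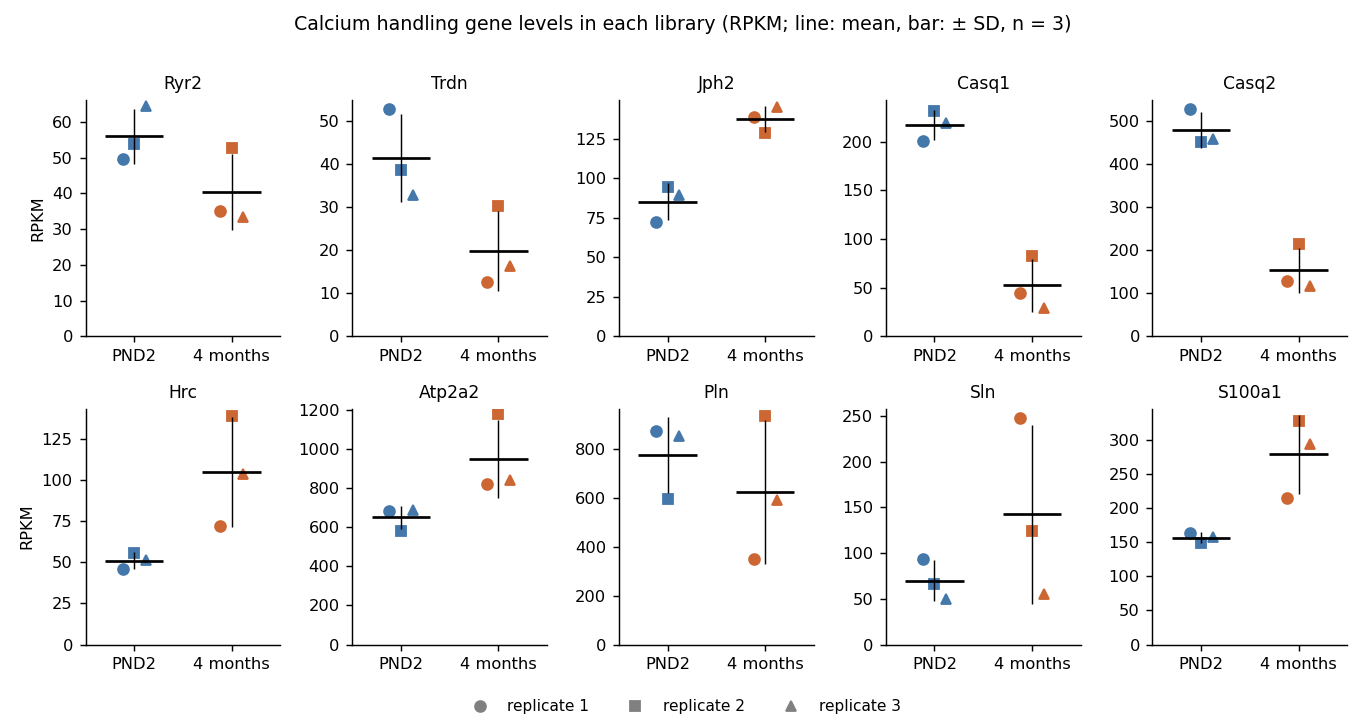
Level of each of the 10 genes in RPKM (vertical axes, starting at 0) in the 3 PND2 libraries (blue) and the 3 libraries at 4 months (orange), with the mean as a line, the SD as a bar and the replicate number as the symbol. Casq1, Casq2 and Trdn lie lower in all 4-month libraries than in any PND2 library, Jph2, Hrc, Atp2a2 and S100a1 lie higher, and Ryr2, Pln and Sln overlap between the ages.

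The 2 small inhibitors of the pump and the 2 ends of the pump's own transcript are shown as sequence, since ratios of these transcripts are given further down. Those ratios use the whole genes and longer exon stretches, of which the bases shown are only a part. The coding sequences of Pln and Sln (GRCm38, plus strand of chr10:53343864-53344022 and of chr9:53853473-53853568, GENCODE annotation) are 159 and 96 bases long, with 52 and 31 codons before the stop. Start and stop codons are in capitals.
Pln: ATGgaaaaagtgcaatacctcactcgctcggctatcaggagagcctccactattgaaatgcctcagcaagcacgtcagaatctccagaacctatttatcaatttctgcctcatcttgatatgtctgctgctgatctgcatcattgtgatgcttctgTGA
Sln: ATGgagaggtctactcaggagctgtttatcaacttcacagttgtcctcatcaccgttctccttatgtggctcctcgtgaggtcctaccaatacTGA
The 2 forms of Atp2a2 share their coding bases and differ from base 2984 on. In the lines that follow, the last 30 shared bases are in lower case and the bases that only that form has, through the stop codon, are in capitals. The capitals lie on the minus strand at chr5:122454291-122454304 for the cardiac form SERCA2a (14 bases) and at chr5:122457151-122457302 for the ubiquitous form SERCA2b (152 bases).
SERCA2a end: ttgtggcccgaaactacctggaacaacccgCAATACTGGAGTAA
SERCA2b end: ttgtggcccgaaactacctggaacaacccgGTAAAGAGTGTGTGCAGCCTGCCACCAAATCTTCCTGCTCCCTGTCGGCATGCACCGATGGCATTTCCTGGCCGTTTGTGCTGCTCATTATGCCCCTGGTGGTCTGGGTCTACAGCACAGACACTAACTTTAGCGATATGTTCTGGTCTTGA

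Calsequestrin fell in both of its forms, by more than any other of the 10 genes. Casq1, the skeletal muscle calsequestrin, stood at 200.5, 231.2 and 218.8 RPKM in the PND2 libraries and at 44.7, 82.7 and 29.3 RPKM at 4 months. The ages were far apart, and replicate 2 was the highest of the 4-month libraries. The mean was 4.15-fold lower at 4 months, with a log2 difference of -2.18 ± 0.33 (SE, n = 3 per age, limma adjusted p = 0.0027).

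Casq2, the cardiac calsequestrin, stood at 526.2, 450.9 and 456.9 RPKM at PND2 and at 128.8, 212.9 and 117.2 RPKM at 4 months. The ages again did not overlap, and again replicate 2 was the highest at 4 months. The mean was 3.12-fold lower, with a log2 difference of -1.69 ± 0.22 (SE, n = 3 per age, limma adjusted p = 0.0014). Casq2 exceeded Casq1 in every library, by 2.22-fold ± 0.36 at PND2 and 3.15-fold ± 0.75 at 4 months (SD, n = 3), and these ratios overlapped between the ages (exact permutation test, two-sided, p = 0.2).

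Markers of skeletal muscle, the tissue that Casq1 is best known from, were mostly low. Of 15 skeletal muscle markers, Acta1, which heart muscle also makes, gave 288 to 495.2 of the 308.2 to 516.3 summed RPKM at PND2. Myod1, a factor of the skeletal lineage, was listed at 0 in all 3 PND2 libraries, but Myog, also on the list, stood at 0.21, 0.28 and 0 RPKM there. The myosins Myh3 and Myh8 were low but present at PND2, with means of 0.53 and 0.61 RPKM, and averaged 0.048 and 0.052 RPKM at 4 months. The highest of the others at PND2 was Tnnt3, with 2.95, 6.08 and 7.13 RPKM, followed by Mylpf, with 3.14, 3.64 and 2.45 RPKM, and at 4 months it was Pvalb, with 13.7 RPKM in replicate 2 and under 0.42 RPKM in the other two. The list's sum at 4 months ran from 131.7 to 314.8 RPKM, and 6 of its 13 tested genes were called lower by limma. The part of skeletal muscle in the level of Casq1 was not tested. Reads of Casq1 may be shared with Gm17224, an antisense gene that overlaps it and averaged 91.5 RPKM at PND2 and 22.7 RPKM at 4 months, since the sources used here do not say whether counting used strand. Ryr2, Atp2a2, Pln and Casq2 also overlap other annotated genes, none of which averaged over 31.1 RPKM at either age.

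The 250 bases upstream of Casq1 and Casq2 are shown because the 2 genes fell together. They are RefSeq sequence of GRCm38.p6, chr1:172219896-172220145 on the minus strand for Casq1 and chr3:102086165-102086414 on the plus strand for Casq2. Capitals mark the E-box letters CANNTG, which read the same on both strands.
Casq1 upstream: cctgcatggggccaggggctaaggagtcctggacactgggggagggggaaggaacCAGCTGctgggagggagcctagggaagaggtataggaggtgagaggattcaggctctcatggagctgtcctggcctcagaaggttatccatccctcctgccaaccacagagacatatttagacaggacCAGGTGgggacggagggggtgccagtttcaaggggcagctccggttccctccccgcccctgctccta
Casq2 upstream: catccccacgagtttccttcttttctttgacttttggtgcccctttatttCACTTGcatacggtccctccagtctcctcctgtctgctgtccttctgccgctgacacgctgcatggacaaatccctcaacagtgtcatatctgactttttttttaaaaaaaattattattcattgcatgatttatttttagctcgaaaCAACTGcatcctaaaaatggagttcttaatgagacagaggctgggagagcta
Each holds 2 E-boxes, and 66.2% of all 32851 promoters of that length hold at least 1. A sequence of the MEF2 type was present in Casq2 and in 2.92% of all promoters. Upstream sequence was matched for 7 of the 10 genes. Among these 7, E-box letters were in 6 (all but S100a1), both in genes that fell (Casq1, Casq2) and in genes that rose (Hrc, Jph2). GATAA, on either strand, was in 3 (Casq1, Hrc, Pln) against 22.6% of all promoters. CATTCC and the CArG box were in 0 of the 7, against 12.6% and 1.47% of all promoters. TATAAA was in Pln alone, against 12.4%. These are matches of letters and no measure of binding.

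Hrc, the third protein that holds calcium inside the store, moved the other way. It stood at 45.8, 55.8 and 51.6 RPKM at PND2 and at 71.8, 138.8 and 104 RPKM at 4 months. All 4-month libraries were higher, with replicate 2 again on top. The mean was 2.05-fold higher, with a log2 difference of 0.99 ± 0.23 (SE, n = 3 per age, limma adjusted p = 0.013).

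Of the proteins that hold the release site together, Jph2 rose and Trdn fell. Jph2 stood at 72, 94.2 and 89.1 RPKM at PND2 and at 138.4, 128.8 and 145 RPKM at 4 months. The 4-month libraries lay close together, all above PND2, and replicate 2 was here the lowest of them. The mean was 1.61-fold higher, with a log2 difference of 0.70 ± 0.12 (SE, n = 3 per age, limma adjusted p = 0.0045).

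Trdn stood at 52.7, 38.5 and 32.7 RPKM at PND2 and at 12.6, 30.2 and 16.3 RPKM at 4 months. The gap between the ages was narrow, from 30.2 to 32.7 RPKM. The mean at 4 months came to 47.7% of the PND2 mean, with a log2 difference of -1.13 ± 0.32 (SE, n = 3 per age, limma adjusted p = 0.031). This call held in only 2 of the 6 fits that left out a library, without PND2 replicate 3 or without 4-month replicate 2, the latter with a difference of -1.49. In the other 4 fits the adjusted p rose to between 0.063 and 0.095.

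Within Trdn, the decline was steeper along the later exons. This split was chosen after the values were seen. The 8 exon rows at the start of the gene (chr10:33083483-33196125) averaged 97.2 ± 11.6 RPKM at PND2 and 63.7 ± 26.9 RPKM at 4 months (SD, n = 3), and the ages overlapped. The 28 exon rows from chr10:33257075 to 33476709, which belong to the long form, stood at 35.7, 23.4 and 15.5 RPKM at PND2 and at 3.37, 11.1 and 5.16 RPKM at 4 months.

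The late exons thus ran at 32.3%, 25.9% and 17.1% of the first exons in the PND2 libraries and at 7.79%, 11.8% and 9.63% at 4 months. The 2 sets did not overlap, and 3 libraries against 3 cannot give a p below 0.1 (exact permutation test, two-sided, p = 0.1, and 0.17 adjusted over the 10 ratios computed). No single exon of the 10 genes was called for differential use: 0 of 228 tested by limma's exon test, with 10 at an unadjusted p under 0.05 (6 in Ryr2 and 4 in Trdn), and 0 with read-count weights (voom), with 23 at an unadjusted p under 0.05. Over all genes, 0.275% of 243348 exon rows were called by both. Without 4-month replicate 2, limma without those weights called 4 exons, 3 late exons of Trdn, all lower at 4 months, and 1 exon of Ryr2, higher. That fit was not run with the weights, and the exon test without them made 931 false calls on simulated data. These 4 calls are therefore not read as results.

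Ryr2, the release channel, stood at 49.5, 54 and 64.4 RPKM at PND2 and at 35, 52.7 and 33.5 RPKM at 4 months. The ages overlapped through 4-month replicate 2, which lay among the PND2 libraries. The log2 difference of -0.49 ± 0.19 was not called (SE, n = 3 per age, limma adjusted p = 0.084), with a 95% interval from -0.94 to -0.04 before adjustment. Without 4-month replicate 2 it was -0.70 and was called (limma adjusted p = 0.012).

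Atp2a2, the pump, was the most abundant of the 10 genes at 4 months. It stood at 681.9, 578.9 and 686.6 RPKM at PND2 and at 818.2, 1176 and 842.8 RPKM at 4 months. All 4-month libraries were above PND2, with replicate 2 well above the other two. The mean was 1.46-fold higher, with a log2 difference of 0.53 ± 0.17 (SE, n = 3 per age), and the limma adjusted p of 0.0495 was just under the threshold. The call was lost in 5 of the 6 fits that left out a library, with adjusted p up to 0.15, and kept without 4-month replicate 1.

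Both ends of Atp2a2 rose, the ubiquitous one by more. The last exon of the SERCA2a form averaged 691 ± 119 RPKM at PND2 and 1013 ± 250 RPKM at 4 months (SD, n = 3), 1.47-fold higher. The stretch that belongs to SERCA2b, the 1410 bases at chr5:122455893-122457302, averaged 93.7 ± 19.8 RPKM at PND2 and 180.6 ± 9.95 RPKM at 4 months, 1.93-fold higher. Its reads were taken as those of a longer exon row less those of the 124-base shared exon within it.

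The SERCA2a end exceeded the SERCA2b end by 7.06, 7.58 and 7.61-fold in the PND2 libraries and by 4.89, 6.86 and 4.97-fold at 4 months. The lowest PND2 value lay just above the highest 4-month value, that of replicate 2 (exact permutation test, two-sided, p = 0.1, the smallest this design allows, and 0.17 adjusted over 10 ratios). The exon rows at these ends did not differ in use from the rest of the gene in limma's exon test, with log2 differences of 0.02 for the SERCA2a end and 0.27 for the row that holds the SERCA2b end (adjusted p of 1.00 for both).

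The inhibitors of the pump were not called. Pln stood at 874.9, 597 and 854.4 RPKM at PND2 and at 349.7, 934.9 and 590.7 RPKM at 4 months. The ages overlapped fully, since 4-month replicate 2 was the highest library of all and replicate 1 the lowest. The log2 difference was -0.40 ± 0.35 (SE, n = 3 per age, limma adjusted p = 0.41), with a 95% interval from -1.22 to 0.41.

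Sln, found mainly in atrial and skeletal muscle, stood at 93.5, 66.6 and 49.4 RPKM at PND2 and at 248, 124.5 and 55 RPKM at 4 months. The 4-month libraries spread over a wider range than the ages differed, and replicate 3 lay within PND2. The log2 difference was 0.82 ± 0.51 (SE, n = 3 per age, limma adjusted p = 0.25), with a 95% interval from -0.38 to 2.02. Without 4-month replicate 3 it was 1.38 and was called (limma adjusted p = 0.039). The order of the 4-month libraries for Sln was that of the atrial light chain Myl7, at 1639, 866.1 and 575.9 RPKM, and Myl7 also varied at PND2, at 1364, 1324 and 459.9 RPKM. The ratio of Sln to Myl7 was 0.075 ± 0.029 at PND2 and 0.130 ± 0.030 at 4 months (SD, n = 3), and the ages overlapped (exact permutation test, two-sided, p = 0.2, and 0.25 adjusted over 10 ratios).

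Relative to Atp2a2 RNA, Pln RNA was lower at 4 months. Both are levels of whole genes in whole tissue. Atp2a2 includes the SERCA2b form, whose end rose 1.93-fold, and smooth muscle also makes Pln. Which cells the ratio reflects was not tested. The ratio of Pln to Atp2a2 was 1.28, 1.03 and 1.24 in the PND2 libraries and 0.43, 0.80 and 0.70 at 4 months, a set chosen after the values were seen. Pln exceeded Atp2a2 in every PND2 library and in none at 4 months (exact permutation test, two-sided, p = 0.1, and 0.17 adjusted over 10 ratios). With Sln added to Pln the ratio was 1.29 ± 0.14 at PND2 and 0.80 ± 0.09 at 4 months (SD, n = 3), again without overlap.

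S100a1 rose. It stood at 163.3, 148 and 158 RPKM at PND2 and at 214.4, 326.8 and 293.4 RPKM at 4 months. The PND2 libraries lay close together, and all 4-month libraries were above them. The mean was 1.78-fold higher, with a log2 difference of 0.81 ± 0.16 (SE, n = 3 per age, limma adjusted p = 0.0076).

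**Figure D2:**
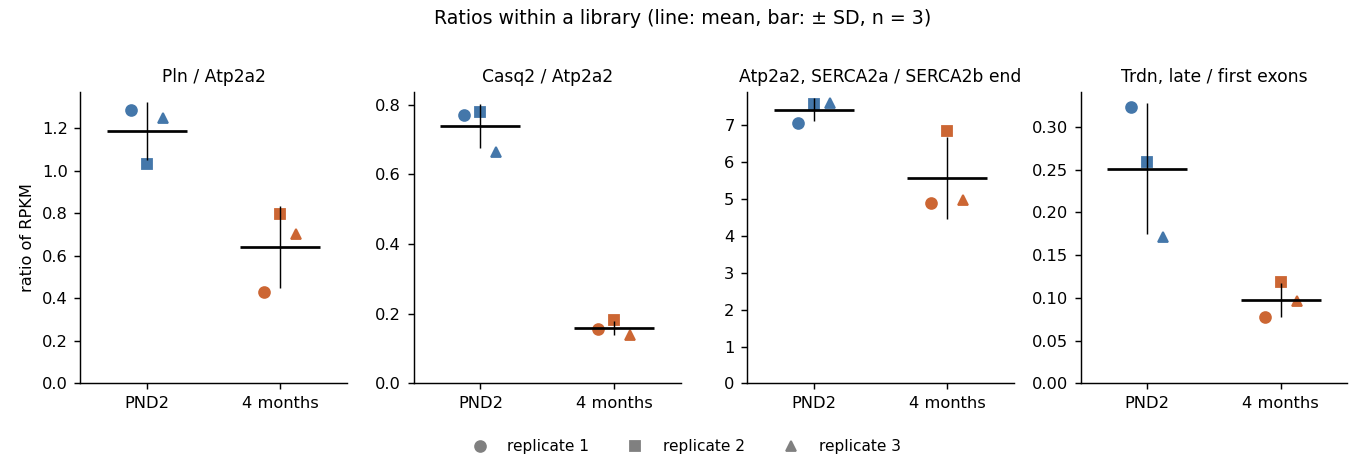
Ratios of RPKM within each library (vertical axes, starting at 0) at PND2 (blue) and 4 months (orange), for Pln over Atp2a2, Casq2 over Atp2a2, the SERCA2a over the SERCA2b end of Atp2a2, and the late over the first exons of Trdn, with the mean as a line, the SD as a bar and the replicate number as the symbol. All 4 ratios were lower in each 4-month library than in any PND2 library, by least for the ends of Atp2a2.

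The order of the levels shifted between the ages. At PND2 it ran Pln, Atp2a2, Casq2, Casq1, S100a1, Jph2, Sln, Ryr2, Hrc and Trdn, from a mean of 775.4 RPKM down to 41.3 RPKM. Pln and Atp2a2 overlapped, as did each pair of neighbours from Jph2 down to Trdn. At 4 months it ran Atp2a2, Pln, S100a1, Casq2, Sln, Jph2, Hrc, Casq1, Ryr2 and Trdn, from 945.6 RPKM down to 19.7 RPKM. There, too, Atp2a2 and Pln overlapped, as did each pair of neighbours from Casq2 down to Ryr2.

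Casq2 over Atp2a2 fell the furthest of the ratios computed, to 0.22 of its PND2 mean. It was 0.74 ± 0.06 at PND2 and 0.16 ± 0.02 at 4 months (SD, n = 3). Casq2 was lower and Atp2a2 higher in every 4-month library, so this ratio could not overlap between the ages and adds nothing to those 2 results. The pump against the release channel, Atp2a2 over Ryr2, was 11.7 ± 1.77 at PND2 and 23.6 ± 1.46 at 4 months, 2.02-fold higher. Of the 10 ratios, 6 did not overlap between the ages, each with an exact two-sided permutation p of 0.1. Several of the 10 contain Atp2a2, so they do not count as separate findings.

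The summed level of heart muscle markers was lower at 4 months, and this stands beside every value above. The summed level of 31 cardiomyocyte markers ran from 25579 to 28857 RPKM at PND2 and from 11032 to 19176 RPKM at 4 months, highest in 4-month replicate 2. The sums of its sarcomere genes were lower at 4 months. Its 8 hormone, energy and nuclear genes overlapped in sum, with 2037 to 2841 RPKM at PND2 and 2490 to 4527 RPKM at 4 months. Of these 31 markers 16 were called lower by limma, against 21.1% of all genes tested, and 5 higher, against 14.7%. Another 10 were not called. The median log2 difference was -0.88, and none was at 0 in a whole age. The highest by fold, Ckmt2, a mitochondrial creatine kinase, averaged 9.58 RPKM at PND2 and 266.8 RPKM at 4 months. So the lower calls for Casq1, Casq2 and Trdn went the way of the 16 markers called lower, and the higher calls for Atp2a2, Hrc, Jph2 and S100a1 the way of the 5 called higher.

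The 9 sarcomere genes used as a reference for heart muscle were Tnnt2, Tnnc1, Actc1, Actn2, Mybpc3, Ttn, Ldb3, Myom1 and Cmya5. Of these 7 were called lower and 1 (Cmya5, at 11.4 RPKM at PND2 and 26.2 RPKM at 4 months) higher, and Myom1 was not called. Their geometric mean stood at 352.9, 380.6 and 416.3 RPKM at PND2 and at 151.1, 271.2 and 181.2 RPKM at 4 months, a mean log2 difference of -0.97 (exact permutation test, two-sided, p = 0.1). Each of the 10 genes was then set against this mean within its library.

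Set against the reference, 6 of the 10 genes were higher in every 4-month library than in any PND2 library, namely Hrc, Sln, S100a1, Jph2, Atp2a2 and Ryr2. This share is near the 53% of all genes tested that did so, and so is no result about these 6. The ratio to the reference rose 3.89-fold for Hrc, 3.46-fold for Sln, 3.43-fold for S100a1, 3.18-fold for Jph2, 2.82-fold for Atp2a2 and 1.39-fold for Ryr2. Casq1 and Casq2 were lower in every 4-month library, against 3.34% of all genes tested, with log2 differences of -1.21 and -0.72. Falls of this size were not particular to calsequestrin. On this scale Myh7 stood at -1.10, Smpx at -1.04, Srl at -0.92 and Slc8a1 at -0.91. More of the 31 cardiomyocyte markers lay above the reference than below, such as Mb (3.13) and Tcap (3.12). Within the reference, Ldb3, Myom1 and Cmya5 lay above its mean and the others below.

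Pln and Trdn overlapped between the ages on this scale, with log2 differences of 0.57 and -0.16. A limma fit scaled to the reference, added after the values were seen, called 5 of the 10 genes higher (Hrc, Sln, S100a1, Jph2 and Atp2a2, against 42.9% of all genes tested) and 1 lower (Casq1, adjusted p of 0.0035, against 2.35%). Casq2 was not called there (adjusted p of 0.065), nor were Ryr2 and Pln, whose differences turned positive, and Trdn.

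**Figure D3:**
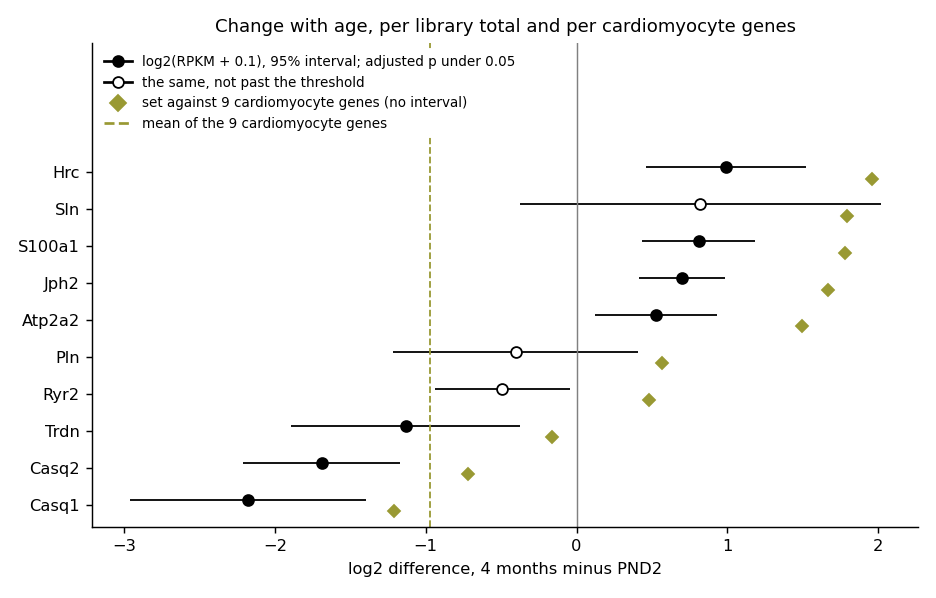
Log2 difference between the ages (horizontal axis, 4 months minus PND2) for each of the 10 genes: circles give the difference in log2(RPKM + 0.1) with its 95% interval from limma, filled where the adjusted p was under 0.05, and diamonds the difference after each gene was set against the mean of 9 cardiomyocyte genes, whose own difference of -0.97 is the dashed line. The circles of Casq1 and Casq2 lie left of that line, that of Trdn close to it, and those of the other 7 right of it.

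Transcripts of other cell types moved as well. Of 9 smooth muscle markers 7 were called higher by limma, with a summed level from 7466 to 8628 RPKM at PND2 and from 16914 to 27981 RPKM at 4 months. The smooth muscle myosin Myh11 averaged 156.4 RPKM at PND2 and 1729 RPKM at 4 months, while Des, shared by all muscle, and Myocd were not called. Among the 4-month libraries this sum was highest in replicate 1 (27981 RPKM), as were 7 of the 9 markers, all but Des and Myocd. Of the 10 genes, Sln was highest in that library too, Atp2a2, Pln, Trdn, Hrc and S100a1 were lowest there, and Ryr2, Casq1, Casq2 and Jph2 were in between.

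Adipocyte markers were near 0 at PND2, from 16.4 to 25.2 summed RPKM, nearly all of it Cidea, and stood at 315.3, 1304 and 313.5 RPKM at 4 months. Of 7 tested, 6 were called higher. Replicate 2, which was highest in these, was also the 4-month library highest in 8 of the 10 genes described here, all but Sln and Jph2. Ventricular markers (Myl2, Myl3, Irx4) were called lower in 3 of 3, with sums of 4601 to 5243 RPKM at PND2 and of 481, 2581 and 1820 RPKM at 4 months. Of 4 atrial markers 3 were tested and 0 called by limma at any direction (0 at an unadjusted p under 0.05), with sums of 1295 to 2040 RPKM at PND2 and of 714.2 to 2786 RPKM at 4 months, and Bmp10 was listed at 0 in 1 library of each age.

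Markers of the valve's own cells were present at both ages. The 7 interstitial markers summed to between 5955 and 6395 RPKM at PND2 and between 7652 and 9662 RPKM at 4 months, with 2 called higher and 3 lower. The 5 endothelial markers summed to between 282.7 and 378.9 RPKM at PND2 and between 179.3 and 187.1 RPKM at 4 months, with 5 called lower. The part of any of these cell types in the levels of the 10 genes was not tested.

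**Figure D4:**
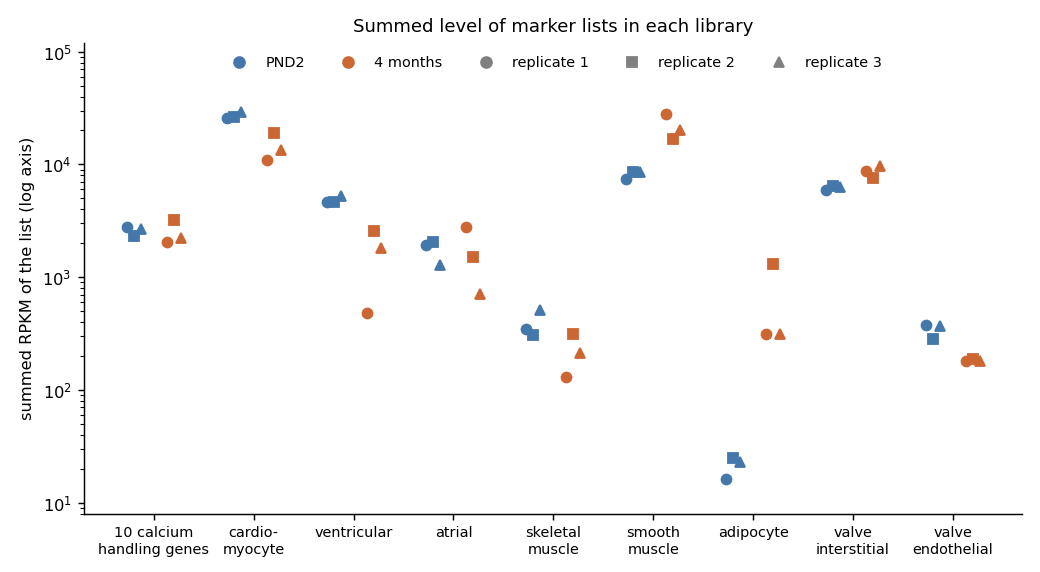
Summed RPKM (vertical log axis) of the 10 calcium handling genes and of 8 marker lists in each PND2 library (blue) and 4-month library (orange), with the replicate number as the symbol. The sum of the 10 genes, between 2061 and 3208 RPKM, overlaps between the ages, as do the atrial and skeletal muscle sums. Cardiomyocyte, ventricular and endothelial sums are lower and smooth muscle, adipocyte and interstitial sums higher at 4 months.

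Beyond the 10 genes, 41 further genes of calcium handling were listed, of which 40 were found and 39 tested. They split evenly, with 10 called higher against 14.7% of all genes tested, 10 called lower against 21.1%, and 19 not called, and their median log2 difference was 0.03. The largest declines were in Sypl2, Srl and Slc8a1. Slc8a1, the sodium-calcium exchanger that removes calcium across the surface membrane, averaged 157.5 RPKM at PND2 and 43.4 RPKM at 4 months, a log2 difference of -1.88 ± 0.20 (SE, n = 3 per age, limma adjusted p = 0.00061). Srl, sarcalumenin, another calcium-binding protein inside the store, averaged 246.5 and 67.6 RPKM, a log2 difference of -1.89 ± 0.19 (limma adjusted p = 0.00054). Sypl2, a membrane protein of the muscle triad, was much scarcer, at 2.08 and 0.40 RPKM, with a log2 difference of -2.09 ± 0.29 (limma adjusted p = 0.0019).

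Among relatives of the 10 genes, the other pumps were scarce beside Atp2a2. Atp2a3, the SERCA of blood and endothelial cells among others, rose from 12.8 to 27 RPKM (log2 difference 1.06 ± 0.15, limma adjusted p = 0.0018), and Atp2a1, the skeletal muscle SERCA, did not exceed 1.91 RPKM in any library. Of the other release channels, Ryr1 did not exceed 0.06 RPKM in any library and was not tested, and Ryr3 fell from 1.61 to 0.38 RPKM (log2 difference -1.82 ± 0.39, limma adjusted p = 0.010). Asph, whose gene also encodes junctin, the partner of triadin, rose from 23.1 to 33.2 RPKM (log2 difference 0.52 ± 0.11, limma adjusted p = 0.010). Jph1, the skeletal junctophilin, averaged 2.12 and 2.75 RPKM and was not called (limma adjusted p = 0.27).

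By role, the release channels and their partners gave 2 higher and 3 lower of 8 tested, the structural genes of the store and junction 2 and 2 of 9, the surface channels and transporters 2 and 3 of 7, the sensors, kinases and phosphatases 2 and 2 of 10, the pumps and their regulators 1 higher of 3, and the store refilling genes 1 higher of 2. In no role were all tested genes called in 1 direction. The summed level of these genes ran from 1930 to 2119 RPKM at PND2 and from 1835 to 1968 RPKM at 4 months.

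**Figure D5:**
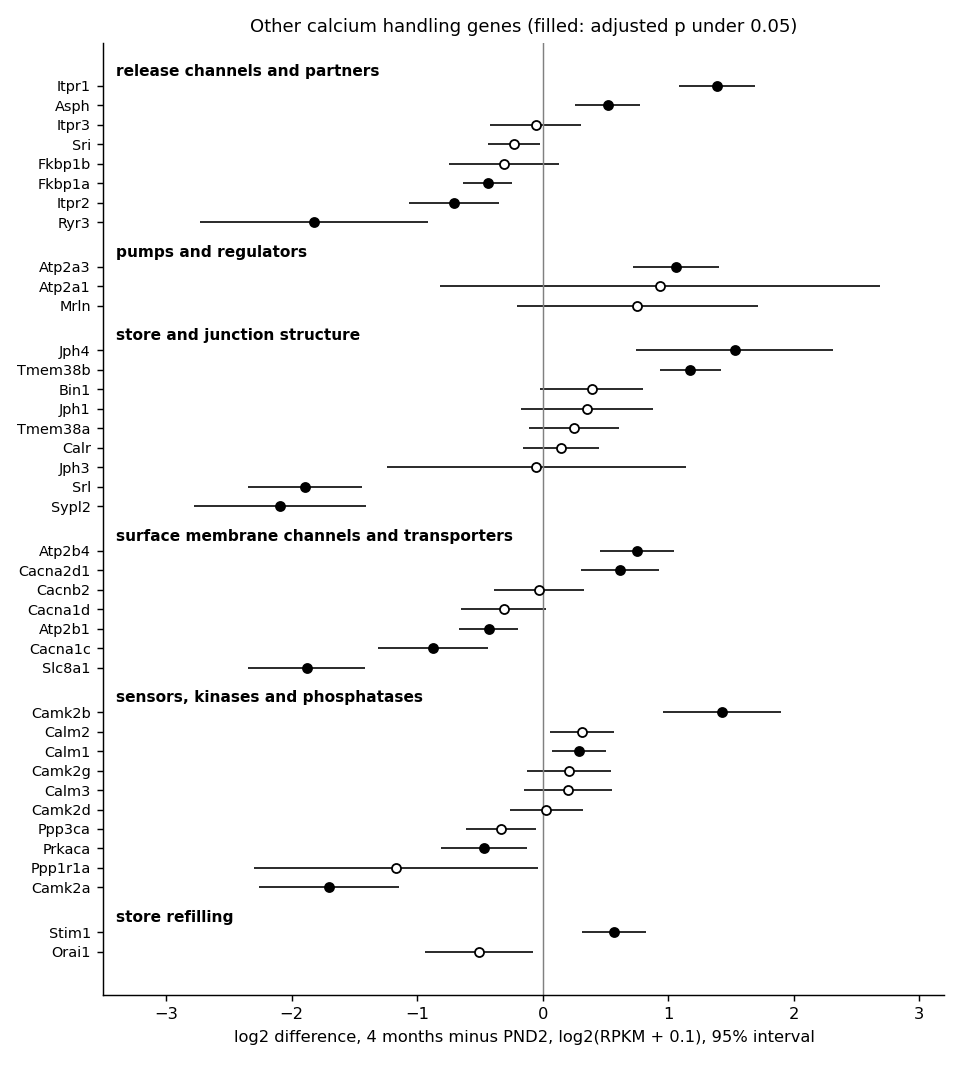
Log2 difference between the ages (horizontal axis, 4 months minus PND2, log2(RPKM + 0.1)) with its 95% interval from limma for the 39 tested genes of the wider calcium handling list, grouped by role and filled where the adjusted p was under 0.05. Filled points lie on both sides of 0, 10 on each, and Sypl2, Srl, Slc8a1, Ryr3 and Camk2a lie furthest to the left.

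The genes whose profiles over the 6 libraries lay nearest to each of the 10 were found by Euclidean distance between centred log2(RPKM + 0.1) values, among 20000 tested genes with a mean of at least 1 RPKM. For Trdn the nearest was Rnf128 (distance 0.32), the second Csrp3, a heart muscle LIM protein (0.37), and the third Catsper2 (0.41). For Casq1 the nearest was Arxes1 (0.19), the second Synpo2l (0.35) and the third its own antisense neighbour Gm17224 (0.36). For Pln the nearest was Lmod3, a muscle thin filament gene (0.29), the second Nat8l (0.32) and the third Cd36, a fatty acid carrier (0.33). Jph2 lay nearest to St3gal3 (0.09) and Timp2 (0.10), Hrc to Coq10a (0.25), S100a1 to Amd1 (0.17), Ryr2 to Pgm2 (0.18), and Atp2a2 and Casq2 to the processed pseudogenes Mpc1-ps (0.15) and Gm6104 (0.20). The next for Casq2 were Cdc7 (0.26) and Gins1 (0.29). No gene came near Sln, whose nearest was at 0.71. With 6 libraries in 2 ages these distances are a description only.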

How the data were processed

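RNA-seq was available for 3 PND2 and 3 4-month libraries, which GEO's labels call biological replicates, each a pool of 5 to 6 mice. The authors aligned paired reads with TopHat2 version 2.1.0 to mm10, counted genes and exons with easyRNASeq and an Ensembl annotation, and deposited RPKM values per gene and per exon. The deposited values include zeros, and the strand setting of the counting is not given in the sources used here. Every value was a whole number of reads (tolerance 0.01) once multiplied by length and by the total that the RPKM steps imply, 23810507 to 38994657 per library. Reads summed over genes were 2.31 to 2.36 times that total, so a read could count for more than 1 gene or its mates separately. At this depth each of the 10 genes held at least 744 reads in every library, so counting error was small beside the spread between libraries.

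Genes with at least 0.1 RPKM in 3 libraries were tested with limma 3.58.1 (R 4.3.3, moderated variances with a trend) on log2(RPKM + 0.1). For exon use, diffSplice in limma was run on exons of at least 1 RPKM in 3 libraries after 60365 repeated rows were removed. Exact permutation tests used scipy 1.17.1. Fold is the ratio of mean RPKM, except that the rule of a fold over 2 was applied to limma's log2 difference. On simulated data for this comparison (26459 genes tested) limma found 63% of genes changed by 1 on the log2 scale and 99% of those changed by 2, with 27 false calls, whereas the exon test made 931 false calls among 245181 exons and the version with read-count weights 7, so the share of exons called is given only where both called them. The simulation gave both ages the same spread and changed only 100 genes of each size. In the real fit 9273 of 25903 genes were called, so the rates found there may not hold here. The 10 genes, the gene lists, the reference and the ratios were chosen with earlier results of these data known. Named beyond the 10 were the 9 reference genes, relatives of the 10, the 3 called genes of largest change in each list with at least 1 RPKM, further list genes needed to read a sum, and up to 3 nearest genes by profile. Alternatives covered pseudocount, filters, scaling, variance model, voom on the recovered reads, the replicate block and each library left out. Coding sequences are from GENCODE M21 transcripts and upstream sequences from RefSeq. Each of the 10 genes was matched by symbol.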

Additional observations from a re-analysis of the deposited data

How the results depend on the processing

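The 7 calls among the 10 genes kept their direction under every alternative run, and Ryr2 (0.48, limma adjusted p = 0.18) and Pln (0.57, adjusted p = 0.18) turned positive under scaling to the cardiomyocyte reference, which was chosen after the data were seen. That scaling moved the median of all genes from -0.14 to 0.83 on the log2 scale. Under it, 38 of the 127 listed genes tested turned positive, among them Myom1 (0.69), which had not been called. Of these 38, 13 had been called lower before, among them Ldb3 (0.47), Kdr (0.065) and Postn (0.0039). Under the same scaling 1 of the 10 genes was called lower, and 22 of the wider calcium genes were called higher and 2 lower. A test per gene with unequal variances, at the same threshold of 0.05, called 0 of the 10 genes higher and 0 lower (1 and 1 at an adjusted p under 0.1, Jph2 and Casq2), 6 and 6 of the wider list, and 2 and 0 of the cardiomyocyte markers. On simulated data it found 0% of changes of 1 and 3% of changes of 2 on the log2 scale. That simulation had equal spread at both ages and few changed genes, so these shares cannot be carried over to the real libraries. Requiring a fold over 2 by limma's log2 difference left 0 of the 10 genes higher and 3 lower, and 5 and 5 of the wider list. A floor at 10 reads left 3 and 10 cardiomyocyte markers. Of the 18 alternatives, left-out libraries included, Atp2a2 lost its call under 12 and Trdn under 11. For Atp2a2 these were, beside the 5 left-out libraries and the unequal-variance test, a pseudocount of 1 (adjusted p = 0.051) or 0.01 (0.0501), no filter (0.074), no variance trend (0.077), the floor (0.077) and the replicate block (0.091). For Trdn they were, beside 4 left-out libraries, that test and the reference scaling, no variance trend (0.062), median scaling (0.062), quantile normalization (0.052), the floor (0.086) and the replicate block (0.052). With the log2 of the summed reference, 1 of the 10 genes lay lower without overlap in place of 2. A filter of 0.1 RPKM gave 1 exon call among the 10 genes, in Atp2a2.

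With each library left out, the 10 genes gave 3 to 4 higher and 2 to 4 lower calls, the wider list 9 to 10 and 9 to 11, the cardiomyocyte markers 4 to 6 and 11 to 18, the genes set against the reference 6 to 7 above and 2 to 2 below, and exons 0 to 4, the 4 without 4-month replicate 2. Replicate numbers did not pair the libraries, since deviations of same-numbered libraries correlated at 0.04, -0.06 and -0.16, and the replicate block gave 3 higher and 2 lower calls among the 10 genes, 9 and 9 in the wider list, 4 and 15 among the cardiomyocyte markers, and 0 exons, with 6 above and 2 below the reference. Pools of animals and 3 libraries per age limit the precision, and heart muscle, smooth muscle and fat content cannot be separated from age in these libraries.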

Other observations

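Markers of the conduction system, where several calcium channels are enriched, were measured but enter no comparison above. Of 5 listed genes, Cacna1g, a T-type calcium channel, averaged 42.3 RPKM at PND2 and 12.3 RPKM at 4 months (log2 difference -1.85 ± 0.35, SE, limma adjusted p = 0.0061), and Hcn4, the pacemaker channel, averaged 6.88 and 2.74 RPKM (log2 difference -1.28 ± 0.40, limma adjusted p = 0.042). Cacna2d2, Tbx3 and Cntn2 were not called. The summed level of the list was highest in replicate 2 at both ages, 98.1 RPKM at PND2 and 60.6 RPKM at 4 months, and between 21.5 and 53.9 RPKM in the other 4 libraries.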
